A study of Mus musculus with 9 samples.

Results

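The genes of DNA replication and mitosis were followed in AML12 cells, a mouse hepatocyte line, under fatty acids with and without the peptide Ang(1-7). The members were all gene symbols of the table of PA/OA and control samples that name a subunit of the origin recognition complex, the MCM or GINS helicase parts, replication factor C, a primase or replicative polymerase, ribonucleotide reductase, PCNA, a CENP or condensin protein, a cell cycle cyclin or kinase, or one of a few mitotic genes. The rule found 63 of the 6213 genes of that table, and 94 mouse symbols of RefSeq match it, of which the others are not analysed here in this comparison. No measured value entered the pattern of symbols, but it was chosen with earlier results of these data known. The transcripts listed in that table all had a mean count of at least 56.8, so members are genes that reached such counts. All 63 members were also listed for Ang(1-7) and PA/OA, and 60 for Ang(1-7) and control, where Bub1b, Cenpi and Cenpv were not used here.

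The 9 samples fell into 3 groups of 3. Cells of the Ang(1-7) group were given the peptide at 100 nM, 30 min ahead of 0.2 mM PA and 0.4 mM OA, taken here as palmitic and oleic acid, which were left on for 24 h. Ang(1-7) is a hormone cut from angiotensin. The PA/OA group received the same fatty acids without the peptide, and control cells received neither. All cells were of 1 line, established from the liver of mice transgenic for human TGF-alpha and dividing in culture, and none of these groups received the carrier alone, so carrier and fatty acids cannot be told apart. Nothing in the labels shows that samples were separate cultures, so p-values reflect only how these samples scatter, and that scatter may be technical.

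Before a cell copies its DNA, the origin recognition complex loads the MCM helicase onto origins, a step called licensing. Cyclin D with Cdk4 or Cdk6 and then cyclin E with Cdk2 release E2F factors, which switch on genes of nucleotide supply and DNA synthesis. Cyclin B with Cdk1 then drives mitosis, with Foxm1 as a transcription factor of the mitotic genes and the kinetochore checkpoint holding the anaphase promoting complex until chromosomes are attached. In RNA from whole cultures, a change in the share of dividing cells and a change in RNA per dividing cell cannot be told apart.

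Promoters are shown for Cdk6, which had the lowest p of all members in both comparisons with controls, and for Cdk1 and Cdc20, 2 of the 3 members called lower in Ang(1-7) than in control once 1 library was left out. Cdk1 and Cdc20 were chosen after their values were seen. Each line gives the 250 bases before the first start listed by RefSeq in GRCm38.p6, on the strand of the gene. They lie at chr5:3343643-3343892 on the plus strand for Cdk6, at a start inside the RefSeq span of the gene, at chr10:69352913-69353162 on the minus strand for Cdk1 and at chr4:118437344-118437593 on the minus strand for Cdc20. Capitals mark an E2F motif (TTTCCCG or TTTGGCG or TTTCGCG or TTTGCCG), the cell cycle homology region TTTGAA or the CCAAT box, each searched on both strands.
Cdk6: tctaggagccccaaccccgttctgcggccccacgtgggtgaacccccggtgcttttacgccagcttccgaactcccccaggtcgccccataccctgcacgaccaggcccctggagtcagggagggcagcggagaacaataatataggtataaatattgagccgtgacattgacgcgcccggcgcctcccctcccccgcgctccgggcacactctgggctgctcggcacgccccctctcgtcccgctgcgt
Cdk1: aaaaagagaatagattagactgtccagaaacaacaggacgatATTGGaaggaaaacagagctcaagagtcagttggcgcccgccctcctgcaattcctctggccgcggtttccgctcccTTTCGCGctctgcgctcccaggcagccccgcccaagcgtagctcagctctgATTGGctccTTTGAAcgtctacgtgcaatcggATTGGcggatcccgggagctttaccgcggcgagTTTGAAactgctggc
Cdc20: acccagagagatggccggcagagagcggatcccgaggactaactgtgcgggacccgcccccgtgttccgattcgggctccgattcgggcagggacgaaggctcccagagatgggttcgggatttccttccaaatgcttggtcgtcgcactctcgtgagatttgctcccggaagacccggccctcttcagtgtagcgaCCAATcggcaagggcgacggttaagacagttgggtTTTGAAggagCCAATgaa
The Cdk1 promoter held 1 E2F motif that began 131 bases before the start, 2 cell cycle homology regions at 71 and 15 bases and 3 CCAAT boxes at 208, 80 and 48 bases. That of Cdc20 held 1 homology region at 18 bases and 2 CCAAT boxes at 53 and 8 bases, and the Cdk6 window had no match.

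Of the 63 members, 51 had a promoter in the RefSeq table. Within 250 bases before to 50 after the start, 31.4% of them (16) held an E2F motif, against 12.3% of 4713 promoters of genes in the PA/OA and control table and 6.85% of 27025 RefSeq promoters. The homology region was also found in 16 members (31.4%), against 12% of the table and 18.1% of RefSeq, and the CCAAT box in 35 members (68.6%), against 39.8% and 37.9%. All 3 motifs stood in 4 member promoters (7.84%, against 0.594% of the table), those of Cdk1, Gins3, Ncapd2 and Ncapg, named after the search. None of the 3 stood in 10 (19.6%, against 47.4%), and in 1 member promoter motifs overlapped. The homology region was found for Plk1, Ccnb2, Cdc20, Kif11 and Mki67, and the E2F motif for Mcm3, Mcm6, Mcm7, Orc1 and Rfc3. Neither motif kept to a single role. The homology region also stood in Mcm2 and Gins3, and the E2F motif in Cdk1, Cenpb and Ncaph. No E2F motif was found for Pcna, Rrm1 or Rrm2, and no homology region for Ccnb1 or Cenpe. These examples were likewise chosen after the search. A match is a description of the letters and not a bound site. Members with an E2F motif had a median log2 change of -0.06 in PA/OA against control (n = 16) and those without it -0.07 (n = 35). With the homology region the median was -0.10 (n = 16, 12 below 0) and without it -0.05 (n = 35, 20 below 0), and with the CCAAT box it was -0.09 (n = 35) and without it -0.05 (n = 16). These differences between members carry no test.

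In the table of PA/OA and control the listed counts came to 24912692 to 27357654 per library, over transcripts with a mean count of at least 56.8, and all 63 members were tested. Here and below, CPM stands for counts scaled to library size and composition. The marker sums and marker levels in this paragraph are the exception and were scaled to library size alone. The members' share of all counts lay between 1.09% and 1.14% in 8 libraries and reached 1.31% in Ang(1-7) 2, which stood apart from the others. Set against the other Ang(1-7) libraries, its counts gave a chi-square of 154 to 250 per degree of freedom, and all other pairs within a group gave 15.7 to 34. Of 30 nervous system markers, 1 was listed with PA/OA and control, and it alone had 132 to 138 CPM in PA/OA and 117 to 140 CPM in control. In the table of both fatty acid groups, 15 of the 30 were listed. The summed level of these 15 was 246 CPM in Ang(1-7) 2, 213 CPM in Ang(1-7) 3 and between 128 and 139 CPM in the other 4 libraries. In the first 2 libraries 0 of the 15 were at 0, against 10 or 11 elsewhere. Both listed blood markers (of 6) were above 0 there as well, with sums of 4.01 and 2.44 CPM, against 0 to 0.159 CPM elsewhere. The part of these RNAs in the members' values was not tested. Of 24 hepatocyte markers, 13 were listed, with sums of 21117 to 23846 CPM that came mostly from the keratins Krt8 and Krt18. Trf reached 597 to 840 CPM and Apob 169 to 202 CPM, whereas albumin (Alb) lay at 3.13 to 19.2 CPM and Apoa1 and Tat at 0 in at least 1 library. Other marker sums differed without overlap between PA/OA and control. The 4 listed of 7 cholangiocyte markers summed to 1568 to 1711 CPM in PA/OA, against 1993 to 2135 CPM in control, mostly from the keratins Krt19 and Krt7. The others of these 4, Sox9 and Spp1, went the other way with overlapping groups. Their log2 changes were 0.56 ± 0.25 and 0.96 ± 0.42 (SE, adjusted p = 0.218 and 0.210 in edgeR). The 3 listed of 13 macrophage markers summed to 674 to 816 CPM in PA/OA, against 587 to 626 CPM in control, almost all from Cd14. The part of these markers in the members' differences below was not tested.

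Members differed widely in measured level. Per kilobase of transcript, which allows genes to be compared, the 25 members with a single annotated RefSeq transcript ran from 668 ± 27.4 CPM per kb in controls for Pcna, the sliding clamp of DNA polymerases, down to 0.800 ± 0.102 CPM per kb for Cenpe, a kinetochore motor (mean ± SD, n = 3). Rrm2, the regulated subunit of ribonucleotide reductase, came next with 292 ± 17.9 CPM per kb. Kif11, the motor that separates spindle poles, had 235 ± 4.43 CPM per kb, Ccnb1 (cyclin B1) 234 ± 5.81, Mcm2 230 ± 5.38 and Rrm1, the large reductase subunit, 225 ± 10.9, and these 4 neighbours lay within their spread of each other. Cdc20, the activator of the anaphase promoting complex, followed with 175 ± 8.13 CPM per kb, then Ccnb2 (cyclin B2) with 162 ± 8.93 and the primase gene Prim1 with 160 ± 2.96. Cdk1, the kinase of mitotic entry, had 110 ± 4.48 CPM per kb, Plk1, a kinase of spindle assembly, 64.8 ± 3.15, and Foxm1 35.6 ± 7.65. Values per kb rest on the listed transcript, with the length of a matched GENCODE transcript, and not on reads other transcripts may have taken.

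The number of annotated transcripts went with the level. The 25 members with 1 RefSeq transcript had a median of 237 CPM in controls (6.33 to 1133), and 1 of them was under 16 CPM, a split near the middle of the members. The 38 members with 2 or more had a median of 9.49 CPM (1.86 to 773), and 23 of them were under 16 CPM. Their median standard error of the log2 change in PA/OA against control was 0.267, against 0.0826 for members with 1 transcript. 10 members were listed on predicted transcripts alone, among them Pola2 (2.06 CPM), the second subunit of polymerase alpha, and Mcm7 (3.13 CPM), a subunit of the same hexamer as Mcm2. Mki67, the proliferation marker Ki-67, was at 2.78 CPM on 1 listed transcript of 4. Low levels of such genes are levels of the listed transcripts, and how reads shared between transcripts were counted is not given in the sources used here.

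**Figure D1:**
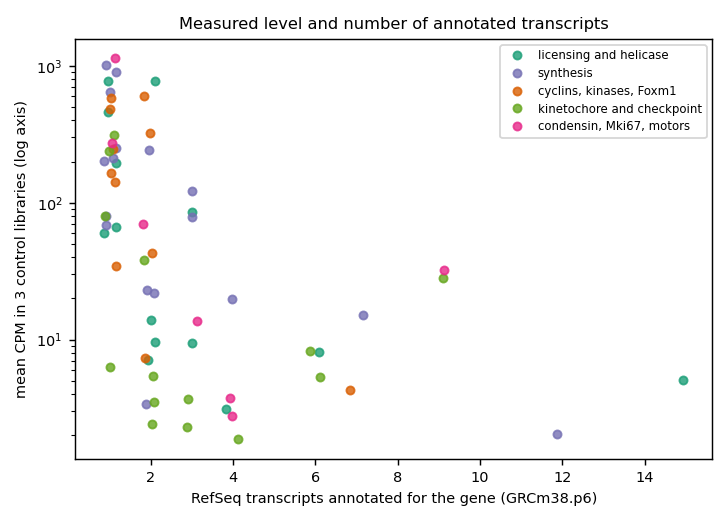
Mean CPM of each of the 63 members in the 3 control libraries (log axis) by the number of RefSeq transcripts annotated for the gene, coloured by role. Points are shifted a little sideways so that they do not cover each other. Members with 1 transcript had a median of 237 CPM and those with 2 or more a median of 9.49 CPM.

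PA/OA was first set against control, to ask what the fatty acids changed. Of the 63 members, 2 rose (3.17%, against 2.82% of all genes called higher) and 0 fell (against 2.24% called lower). Cdk6, a kinase that partners cyclin D in early G1, rose 1.23-fold, and Foxm1 rose 1.33-fold. The DNA synthesis genes, the MCM helicase, the cyclins, Cdk1, Plk1, Aurkb and the kinetochore genes did not pass the test, with log2 values near 0 for those of high level.

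Cdk6 was at 668, 858 and 705 CPM in PA/OA 1 to 3, against 585, 627 and 592 CPM in controls 1 to 3, on a scale common to all 9 libraries. All PA/OA libraries lay above all control libraries, and PA/OA 2 was the highest. The log2 change was 0.30 ± 0.08 (SE, 95% interval 0.14 to 0.47, adjusted p = 0.0301 by the quasi-likelihood test of edgeR with Benjamini-Hochberg adjustment, n = 3 per group). Foxm1 was at 238, 227 and 196 CPM in PA/OA 1 to 3, against 138, 206 and 153 CPM in controls 1 to 3. Control 2 lay above PA/OA 3, so the groups overlapped. The log2 change was 0.41 ± 0.12 (95% interval 0.17 to 0.65, adjusted p = 0.0463 in the same edgeR test).

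Both calls ended in most fits that left out 1 library, and each such fit also had fewer samples. The call of Cdk6 ended without control 1 (edgeR adjusted p = 0.151), control 2 (0.0510), control 3 (0.0979), PA/OA 2 (0.222, with a log2 change of 0.19) or PA/OA 3 (0.0562) and held without PA/OA 1 (0.00655). That of Foxm1 ended without control 1 (edgeR adjusted p = 0.249), control 3 (0.158) or PA/OA 1, 2 or 3 (0.122, 0.121 and 0.0591) and held without control 2 (0.00306). In the 6 such fits the log2 change ran from 0.19 to 0.37 for Cdk6 and from 0.29 to 0.60 for Foxm1, so the sign stayed the same in each. In 1 fit over all 9 libraries, which share 1 estimate of the spread, 0 members were called, with edgeR adjusted p = 0.413 for both genes. In all, 5.05% of genes were called in this comparison. DESeq2 called 4 members (6.35%, against 8.58% of genes). These were Cdk6 and Foxm1 above control (3.17%, against 4.47% of genes) and, below it, Cdk4 (adjusted p = 0.0475 in DESeq2), the other kinase of cyclin D, and Rfc2 (0.0375), a subunit of the clamp loader.

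**Figure D2:**
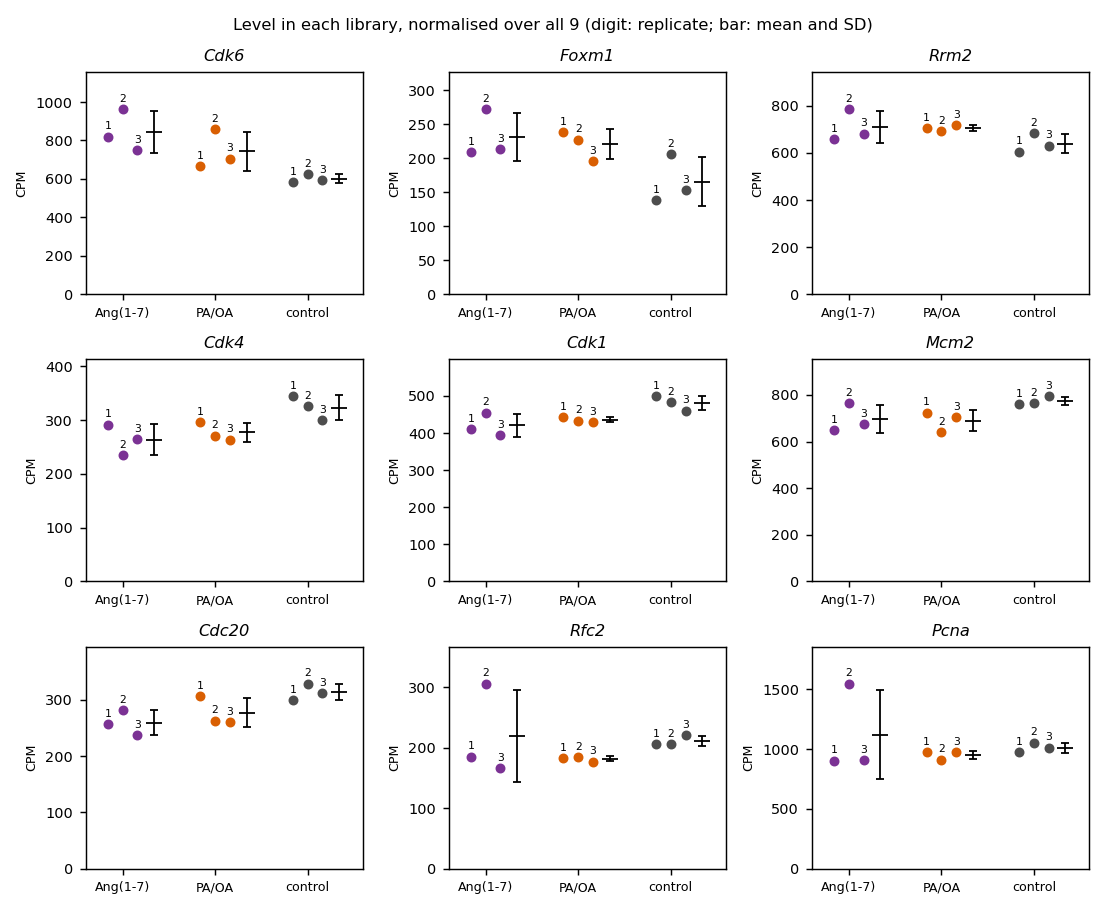
CPM of 9 members in each library, normalised over all 9 libraries and starting at 0, with the replicate number at each point and the mean and SD of each group (n = 3) beside the points. Cdk6 lies above the controls in every PA/OA library, while Pcna and Rfc2 stand out in Ang(1-7) 2 alone, at 1548 and 306 CPM.

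Among the licensing and helicase genes, 0 of 14 passed edgeR's test (median log2 change -0.09). Mcm2, a helicase subunit, was at 725, 640 and 707 CPM in PA/OA 1 to 3, against 762, 764 and 795 CPM in controls 1 to 3. The groups did not overlap, PA/OA being lower, and the log2 change was -0.17 ± 0.06 (edgeR adjusted p = 0.145). Mcm3 had -0.11 ± 0.07 and Mcm4 0.04 ± 0.07, with overlapping groups. Orc1 and Orc5, subunits of the origin recognition complex at about 10 CPM, lay higher in every PA/OA library than in every control (0.34 ± 0.26 and 0.40 ± 0.25). The 4 genes of the GINS complex, which joins MCM in the active helicase, lay between -0.14 (Gins1) and -0.05 (Gins4). Within 1 hexamer the listed subunits thus ranged from -0.60 ± 0.57 for Mcm7 to 0.25 ± 0.27 for Mcm6, both at low level, and each interval of these 2 included 0.

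Of the 17 genes of DNA synthesis, 0 passed edgeR's test (median -0.05). Rrm2 was at 706, 693 and 718 CPM in PA/OA 1 to 3, against 606, 683 and 631 CPM in controls 1 to 3, and the groups did not overlap. Its log2 change was 0.14 ± 0.06 (edgeR adjusted p = 0.244). Rrm1, the other subunit of the same enzyme, had a log2 change of 0.00 ± 0.06 and was at 886 to 917 CPM in PA/OA and 850 to 933 CPM in controls. Rfc2 was at 183, 185 and 177 CPM in PA/OA 1 to 3, against 207, 207 and 221 CPM in controls 1 to 3, again without overlap. Its log2 change was -0.22 ± 0.08 (adjusted p = 0.117 in edgeR), whereas the other clamp loader genes Rfc3, Rfc4 and Rfc5 had -0.11, -0.07 and -0.05. Pcna had -0.09 ± 0.06 (edgeR adjusted p = 0.438) with a 95% interval of -0.22 to 0.03.

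Pola2 had the largest log2 value of all members. Its single predicted transcript had 184, 114 and 159 counts in PA/OA 1 to 3, against 30, 30 and 103 in controls 1 to 3. The groups did not overlap, but control 3 lay close to the lowest PA/OA library. The log2 change was 1.52 ± 0.52 (95% interval 0.43 to 2.61, edgeR adjusted p = 0.100), and of the 6 fits with 1 library left out it passed in that without control 3 alone (2.40, adjusted p = 0.0132 in edgeR). Pola1, which encodes the catalytic subunit of the same polymerase, had 0.10 ± 0.21.

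The cyclins, kinases and Foxm1 numbered 11, and the 2 genes that rose were both among them. Cdk4 was at 297, 271 and 264 CPM in PA/OA 1 to 3, against 344, 326 and 299 CPM in controls 1 to 3, every PA/OA library being lower than every control. Its log2 change was -0.23 ± 0.08 (edgeR adjusted p = 0.101), so the 2 cyclin D kinases lay on opposite sides of 0, and Cdk4 was singled out after its values were seen. Cyclin D1 (Ccnd1) was listed on a predicted transcript alone, 1 of 2 annotated for the gene. That transcript had 37.7, 42.2 and 33.5 CPM in PA/OA, against 47.5, 33.4 and 47.0 CPM in controls. Its log2 change was -0.18 ± 0.16 with overlapping groups. Cdk1 was at 443, 434 and 430 CPM in PA/OA 1 to 3, against 499, 483 and 460 CPM in controls 1 to 3. The groups did not overlap, and the log2 change was -0.15 ± 0.07 (edgeR adjusted p = 0.225). Its partners Ccnb1 and Ccnb2 had -0.09 ± 0.06 and -0.10 ± 0.08, and Plk1 had 0.08 ± 0.09. Aurkb, the kinase that corrects spindle attachments, had 0.12 ± 0.32 at about 8 CPM. This value sums a curated and a predicted transcript, and its sign turned on curated transcripts alone.

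Of the 14 kinetochore and checkpoint genes, 0 passed edgeR's test (median -0.05). Cdc20 was at 307, 263 and 261 CPM in PA/OA 1 to 3, against 300, 329 and 311 CPM in controls 1 to 3, and PA/OA 1 alone lay within the range of controls. Its log2 change was -0.18 ± 0.08 (edgeR adjusted p = 0.206), and it passed without PA/OA 1 (-0.27, adjusted p = 0.0484 in edgeR), where Cdk4 passed as well. Cenpf, a large kinetochore protein at about 4 to 6 CPM, had 0.70 ± 0.47 with overlapping groups, and Cenpb, which binds centromeric repeats and was measured well, had -0.05 ± 0.09. Of the 7 genes of chromosome structure and motors, 0 passed (median -0.09). The condensin genes Ncaph and Ncapg had 0.14 ± 0.08 and -0.18 ± 0.12, and Kif11 had -0.03 ± 0.06. Mki67 had 73, 100 and 29 counts in PA/OA 1 to 3, against 33, 80 and 108 in controls 1 to 3, a log2 change of -0.09 ± 0.56. These counts allow no statement on Ki-67 beyond an interval of -1.26 to 1.09.

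Over all 63 members the median log2 change was -0.07, with 40 values below 0 and 23 above, against a median of 0.01 over all genes tested. An unadjusted p under 0.05 was found for 9 members (14.3%), against 19.4% of genes, and 9 members (14.3%) had groups that did not overlap, against 23.8% of genes. Of these, 5 were higher (7.94%, against 12.2% of genes) and 4 lower (6.35%, against 11.6%). The 5 higher were Cdk6, Pola2, Rrm2, Orc1 and Orc5, and the 4 lower were Cdk1, Cdk4, Mcm2 and Rfc2. The precision differed with level. The 95% interval lay within a 1.5-fold change either way for 36 of the 39 members of at least 16 CPM and for 0 of the 24 under it. Among all genes under 16 CPM, 19 of 2670 were called higher and 7 lower, so changes could pass the test at that level.

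**Figure D3:**
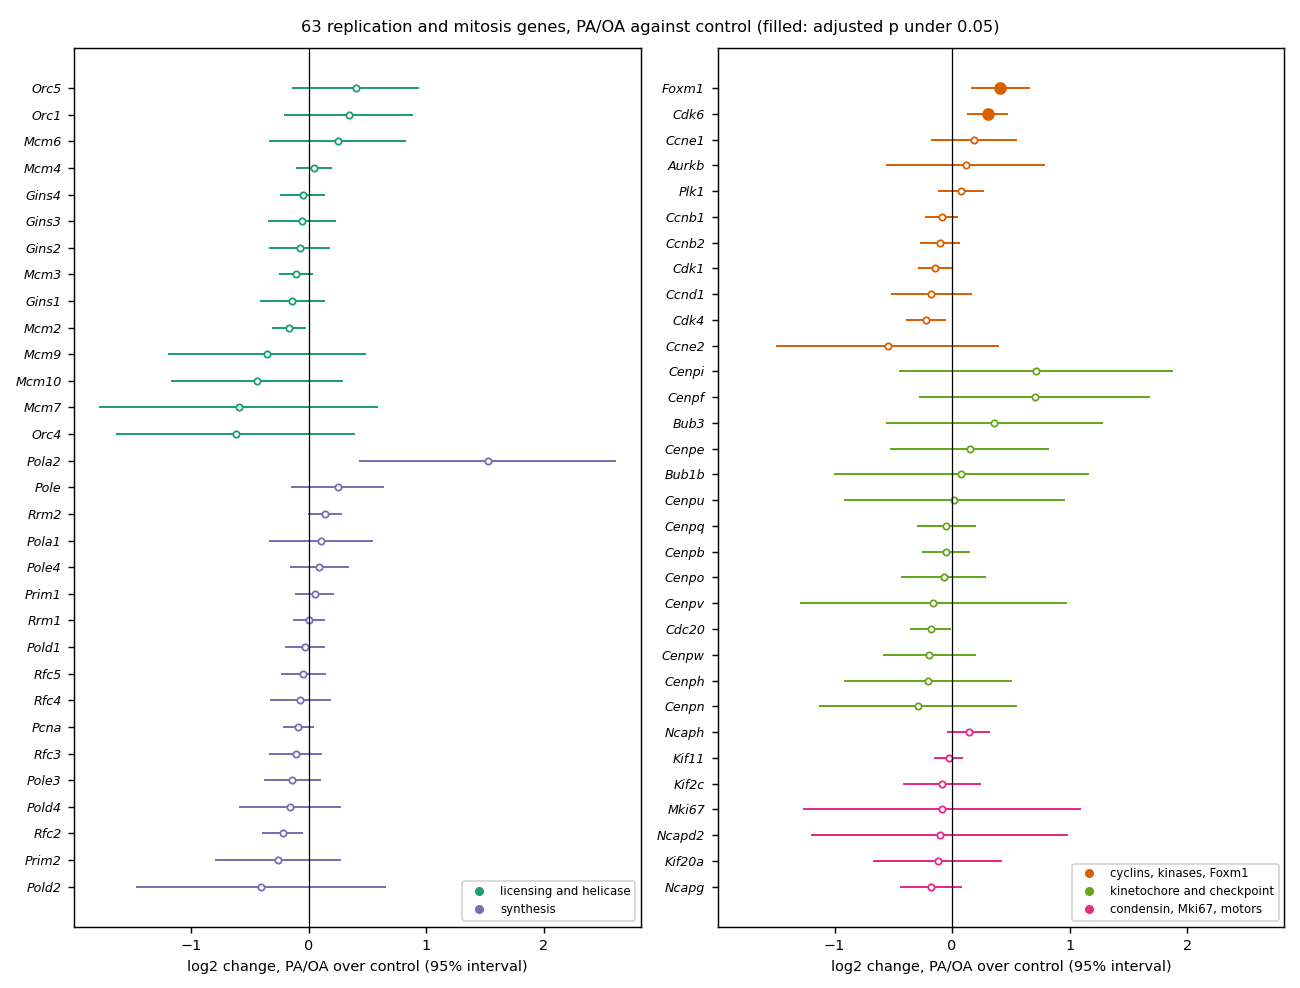
Log2 change of each of the 63 members in PA/OA over control with its 95% interval, ordered within 5 roles. The filled points are Cdk6 and Foxm1, the 2 members with an adjusted p under 0.05, and the widest intervals belong to members under 16 CPM.

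Of the other cell cycle genes, a list of 26 further replication genes had 2 lower in PA/OA (7.69%, against 2.24% of all genes) and 0 higher (against 2.82%), with a median of -0.08. Nasp, a histone chaperone, fell to 48.8 ± 4.47 CPM in PA/OA, against 68.2 ± 5.83 CPM in control (-0.48 ± 0.13, adjusted p = 0.0329 in edgeR's test), and Rpa3, a subunit of the protein that coats single-stranded DNA, to 49.5 ± 3.12 CPM, against 68.0 ± 7.99 CPM (-0.46 ± 0.13, adjusted p = 0.0429). A list of 53 further mitosis genes had 1 lower (1.89%), the mitotic kinase gene Pbk, at 29.2 ± 2.35 CPM in PA/OA, against 41.8 ± 1.19 CPM in control (-0.52 ± 0.15, edgeR adjusted p = 0.0468), and 0 higher (median -0.04). Of 30 cell cycle regulators 0 were called by edgeR, 5 had an unadjusted p under 0.05 (16.7%, against 19.4% of genes) and 3 were called by DESeq2 (10%, against 8.58%). Of 64 histone genes of the Hist clusters, which cells use mostly while they copy DNA, 32 were lower (50%) and 0 higher (median -0.36). Near-identical copies among them may share reads, so single histone genes are uncertain and the 32 may not be separate observations. A broader search for histone genes took in 4 more and gave the same 32 lower of 68 (median -0.33).

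Between Ang(1-7) and PA/OA, which asked whether the peptide changed the response to the fatty acids, 0 of 63 members were called by edgeR, as were 0% of the 9261 genes tested. DESeq2 also called 0 members (against 0.0324% of genes, all higher), and 1 member had an unadjusted p under 0.05 in edgeR (1.59%, against 2.55% of genes). This was Bub3, a checkpoint protein, with 83, 51 and 91 counts in Ang(1-7) 1 to 3, against 124, 155 and 152 counts in PA/OA 1 to 3. All Ang(1-7) libraries lay below all PA/OA libraries, with a log2 change of -0.96 ± 0.38 (edgeR adjusted p = 0.965). Without Ang(1-7) 2 it was -0.73 ± 0.35. Bub3 was measured at 1.24 to 5.55 CPM on the transcripts common to all tables.

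Groups did not overlap in 5 members (7.94%), against 11% of genes. Cenpo and Cenpe, both of the kinetochore, lay higher in Ang(1-7) (0.39 ± 0.20 and 0.42 ± 0.25), which is 3.17% of members, against 4.6% of genes. Bub3, Pold1 and Kif20a lay lower (4.76%, against 6.37%). Pold1, the catalytic subunit of polymerase delta, was at 223, 183 and 204 CPM in Ang(1-7) 1 to 3, against 249, 230 and 236 CPM in PA/OA 1 to 3, a log2 change of -0.23 ± 0.12. Kif20a, a motor of cytokinesis, had -0.32 ± 0.23 on the transcripts of that table. None of these 5 passed the test.

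For the 2 genes that rose in PA/OA, Ang(1-7) did not bring a difference that passed. Cdk6 was at 820, 964 and 752 CPM in Ang(1-7) 1 to 3, against 668, 858 and 705 CPM in PA/OA 1 to 3, with overlapping groups (0.19 ± 0.14, edgeR adjusted p = 0.965, and 0.0917 ± 0.0934 without Ang(1-7) 2). Foxm1 was at 209, 272 and 213 CPM in Ang(1-7) 1 to 3, against 238, 227 and 196 CPM in PA/OA 1 to 3 (0.07 ± 0.14, edgeR adjusted p = 0.974, and -0.05 without Ang(1-7) 2). The 95% interval of this difference ran from -0.12 to 0.50 for Cdk6 and from -0.25 to 0.40 for Foxm1, so the peptide's difference from PA/OA was under 1.5-fold either way for both within these intervals. Among other members of high level, Mcm4 had 0.22 ± 0.15, Rrm1 0.26 ± 0.19, Pcna 0.24 ± 0.20, Ccnb2 0.21 ± 0.21, Ncapg 0.30 ± 0.21 and Gins3 -0.28 ± 0.18. Without Ang(1-7) 2 all 6 lay nearer to 0 or on its other side: Mcm4 had 0.0440 ± 0.0743, Rrm1 -0.0103 ± 0.0675, Pcna -0.0615 ± 0.0701, Ccnb2 -0.0926 ± 0.0858, Ncapg 0.0450 ± 0.132 and Gins3 -0.18 ± 0.15. Mcm2, Rrm2, Ccnb1, Cdk1 and Plk1 all lay between -0.05 and 0.01. Aurkb and Mki67, both low, had -0.21 ± 0.30 and -0.32 ± 0.61, and Ccnd1 0.09 ± 0.20.

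The median over the 63 members was -0.03 with 33 values below 0, against a median of -0.01 over all genes. Without Ang(1-7) 2, 0 of 63 members were called by edgeR and 0 had an unadjusted p under 0.05 (3.58% of genes). In that fit 45 members lay below 0 (71.4%, median -0.06), against 48.6% of genes (median 0.01), and 34 intervals lay within 1.5-fold, against 23 with all libraries. A further 11 genes that match the rule were tested in this table alone, among them Aurka, Ccna2, Cdc45, Cdk2 and Cenpa, all under 3 CPM in both groups, and 0 of them were called by edgeR, 0 with an unadjusted p under 0.05 and 0 by DESeq2.

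**Figure D4:**
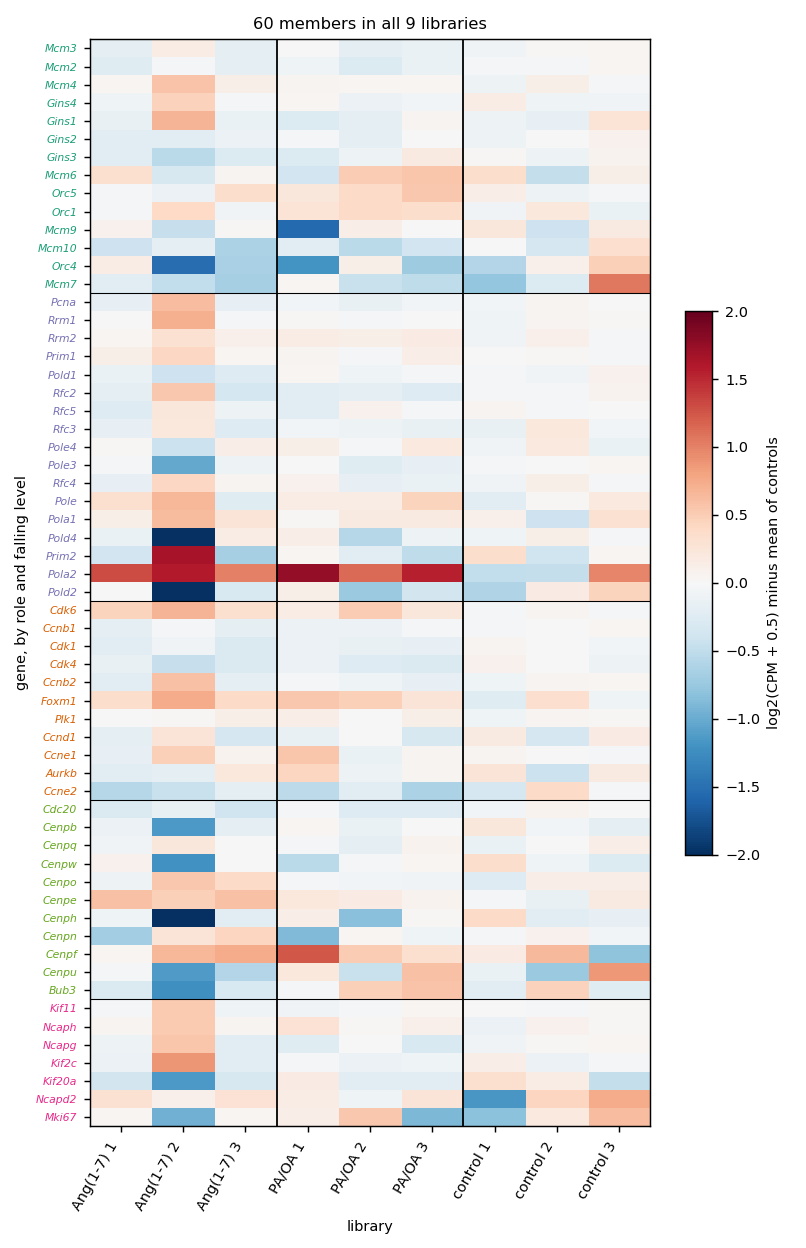
Each of the 60 members listed in all tables (rows, grouped by role and ordered by level) in each of the 9 libraries (columns), as log2(CPM + 0.5) minus the mean of the 3 controls, with colours cut off at 2 either way. Ang(1-7) 2 holds the highest or the lowest value for 70% of the members, and the low genes at the foot of each role vary between libraries of 1 group.

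The library Ang(1-7) 2 set much of the spread in these comparisons. Of the 60 members in all 9 libraries, it held the highest value for 26 (43.3%, against 29.3% of 6033 genes) and the lowest for 16 (26.7%, against 31.5%), 70% in all, against 60.8% of genes, while the other libraries did so for 5% to 30% of members. Among 39 members of at least 16 CPM, 11 lay beyond 1.5-fold from the mean of the other 8 libraries (28.2%, against 29.3% of genes), and in the other libraries 0 to 2 did. The median deviation of this library from the others, on the log2 scale, was 0.23 over members and -0.01 over genes, so members leaned upward in it. The members named here for this library were chosen after their values were seen.

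Genes of DNA synthesis went both ways in that library. Pcna was at 1548 CPM in Ang(1-7) 2 and at 905 to 1055 CPM in the other 8 libraries, Rrm1 at 1466 against 850 to 933 CPM and Prim2, the large primase subunit, at 48.0 against 9.24 to 19.2 CPM. By contrast, Pold4, an accessory subunit of polymerase delta, was at 3.38 CPM against 15.3 to 25.6 CPM, and Pole3, which belongs to polymerase epsilon, at 38.8 against 66.7 to 81.2 CPM. Pold2 had 0 counts there on the common transcripts and 1.72 to 4.52 CPM elsewhere.

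Mitotic genes also diverged. Kif11 was at 1624 CPM in Ang(1-7) 2 and at 1065 to 1161 CPM elsewhere, Kif2c, a motor that dismantles microtubules, at 59.3 against 27.6 to 35.3 CPM, and Ccnb2 at 371 against 214 to 256 CPM. Cenpb was at 106 CPM there against 205 to 276 CPM, and Cenph, of the inner kinetochore, at 1.05 against 4.37 to 10.7 CPM. Cdk1, Ccnb1, Cdc20, Plk1 and Mcm2 were at 0.990 to 1.07 times the mean of the other 8 libraries there. Members of some complexes lay on opposite sides of the other libraries. For polymerase epsilon, Pole was at 34.3 against 18.2 to 29.5 CPM, while Pole3 was lower. In the GINS complex, Gins1 (136 against 70.9 to 103 CPM) and Gins4 (269 against 180 to 217 CPM) were higher. Gins3 was lower (41.4 against 49.7 to 68.4 CPM), and Gins2 lay within the range of the others. The cause was not tested.

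The comparison of Ang(1-7) with control shares its controls with that of PA/OA and its Ang(1-7) libraries with the one above, so values are given side by side only. Of 60 members, 0 were called by edgeR, against 0.245% of 6134 genes, 6 had an unadjusted p under 0.05 (10%, against 14.9% of genes), and DESeq2 called 1, Cdk6 (adjusted p = 0.0263), against 4.22% of genes in all and 2.62% higher. Groups did not overlap in 15 members (25%), against 26.5% of genes, with 5 higher (8.33%, against 13.2%) and 10 lower (16.7%, against 13.3%). The median over members was 0.00 with 30 values below 0, against 0.02 over all genes.

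Cdk6 was at 820, 964 and 752 CPM in Ang(1-7) 1 to 3, against 585, 627 and 592 CPM in controls 1 to 3. Every Ang(1-7) library lay well above every control. The log2 change was 0.48 ± 0.11 (adjusted p = 0.137 in edgeR) with all libraries and 0.38 ± 0.07 (adjusted p = 0.00122) without Ang(1-7) 2. Foxm1 was at 209, 272 and 213 CPM in Ang(1-7) 1 to 3, against 138, 206 and 153 CPM in controls 1 to 3, a log2 change of 0.47 ± 0.17 (adjusted p = 0.274) and 0.34 ± 0.13 (0.0957) without Ang(1-7) 2 in edgeR. The groups of Foxm1 did not overlap, although Ang(1-7) 1 lay only just above control 2.

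Without Ang(1-7) 2, 4 of 60 members were called (6.67%), against 10.2% of genes. Cdk6 was the 1 called higher (1.67%, against 5.22% of genes), and 3 were called lower, Cdc20, Cdk1 and Mcm2 (5%, against 4.96% of genes). Cdc20 was at 257, 282 and 238 CPM in Ang(1-7) 1 to 3, against 300, 329 and 311 CPM in controls 1 to 3, a log2 change of -0.29 ± 0.10 with all libraries (edgeR adjusted p = 0.260) and -0.35 ± 0.08 (0.00843) without Ang(1-7) 2. All 3 Ang(1-7) libraries were below all controls. Cdk1 was at 412, 455 and 395 CPM in Ang(1-7) 1 to 3, against 499, 483 and 460 CPM in controls 1 to 3, and Ang(1-7) 2 was just under control 3. Its log2 change was -0.21 ± 0.10 with all libraries (edgeR adjusted p = 0.358) and -0.26 ± 0.07 (0.0234) without Ang(1-7) 2. Mcm2 was at 650, 764 and 676 CPM in Ang(1-7) 1 to 3, against 762, 764 and 795 CPM in controls 1 to 3. On this scale Ang(1-7) 2 lay just above controls 1 and 2. The log2 change was -0.17 ± 0.10 with that library (edgeR adjusted p = 0.439) and -0.23 ± 0.06 (0.0246) without it.

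Further members lay lower without reaching the threshold in that fit. Mcm3 had -0.20 ± 0.06 (edgeR adjusted p = 0.0507), Rfc2 -0.27 ± 0.09 (0.0584), Ccnb1 -0.20 ± 0.06 (0.0602) and Pcna -0.17 ± 0.06 (0.0888). In that fit 12 of 60 members had an unadjusted p under 0.05 in edgeR (20%, against 24.7% of genes). In it 40 of 60 members lay below 0 (66.7%, median -0.09), against 48.9% of genes (median 0.01), and the biological coefficient of variation was 21.2%, against 30.7% with all libraries. When Ang(1-7) 3, the other library with nervous system markers, was left out as well, Cdk6 alone was called (0.44, edgeR adjusted p = 0.00347) and the single Ang(1-7) library was taken to vary like the controls. Cdc20, Cdk1 and Mcm2 then had -0.29 (edgeR adjusted p = 0.150), -0.23 (0.228) and -0.26 (0.104).

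Of the other named members in this comparison with all libraries, Gins3 had -0.35 ± 0.15, Pold1 -0.27 ± 0.11, Kif20a -0.53 ± 0.26, Cenpe 0.56 ± 0.27, Pola2 1.30 ± 0.60 and Ncaph 0.21 ± 0.14, and 0 of them were called. Pola2 had 128, 167 and 109 counts in Ang(1-7) 1 to 3, against 30, 30 and 103 counts in controls 1 to 3, so that control 3 again lay near the treated libraries. Rrm2 had 0.13 ± 0.10, Ccnd1 -0.10 ± 0.22, Plk1 0.04 ± 0.11, Aurkb -0.10 ± 0.33 and Mki67 -0.42 ± 0.61. In the further lists edgeR called 0 of 23 replication genes, 0 of 54 mitosis genes and 0 of 29 regulators in Ang(1-7) against control, with 4, 6 and 3 at an unadjusted p under 0.05 (17.4%, 11.1% and 10.3%, against 14.9% of genes) and 1, 1 and 2 called by DESeq2 (4.35%, 1.85% and 6.9%, against 4.22%). In Ang(1-7) against PA/OA it called 0 of 36, 0 of 75 and 0 of 38, with 1, 0 and 1 at an unadjusted p under 0.05 (2.78%, 0% and 2.63%, against 2.55% of genes) and 0 called by DESeq2 in each. Histone genes of the Hist clusters had 0 called by edgeR in both, with medians of -0.64 over 64 genes against control (44, or 68.8%, with an unadjusted p under 0.05 and 36, or 56.2%, called by DESeq2) and -0.25 over 65 genes against PA/OA (18, or 27.7%, and 0).

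**Figure D5:**
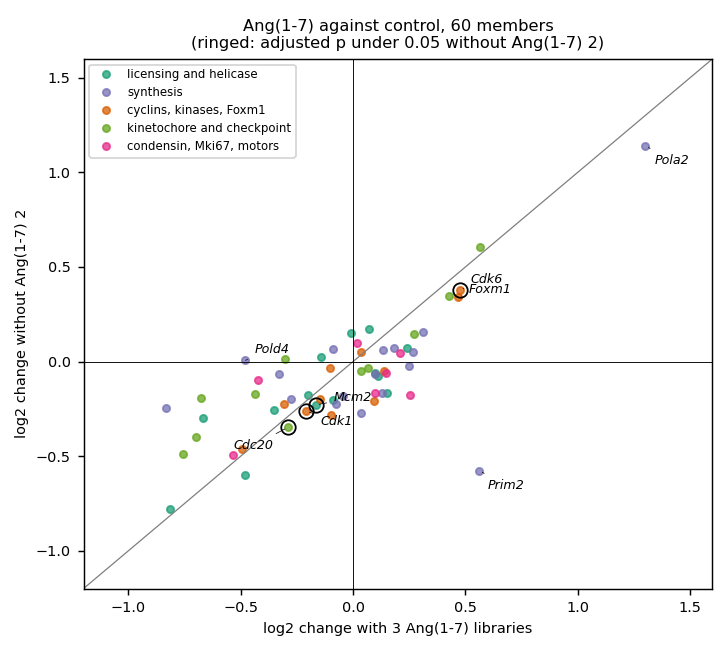
Log2 change of 60 members in Ang(1-7) over control with all 3 Ang(1-7) libraries (x axis) and without Ang(1-7) 2 (y axis), coloured by role, with a line of equal values. The ringed members Cdk6, Cdc20, Cdk1 and Mcm2 are those with an adjusted p under 0.05 without that library, and Prim2 and Pold4 are among those whose value moved far from the line.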

How the data were processed

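RNA-seq of AML12 cells was analysed from 3 tables, 1 for each pair of groups. The counts were deposited by the authors as whole numbers per RefSeq transcript, unnormalised, and the submitters' processing notes name bcl2fastq, HISAT2 2.2.5, HTSeq 0.11.2 and hg19, a human build, although the transcripts are of mouse. The log2 fold changes and the p-values were deposited by the authors in the same tables with no method stated in the file headers, and were not used for the results. Listed transcripts had a mean count of at least 56.8 (PA/OA and control), 5.17 (Ang(1-7) and PA/OA) and 59.5 (Ang(1-7) and control).

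Counts were summed per gene symbol. Each pair was fitted separately with edgeR 4.0.16 in R 4.3.3 (TMM scaling, filterByExpr, quasi-likelihood F test), with Benjamini-Hochberg adjustment over all genes tested and a threshold of 0.05. The steps were tested on simulated data. Levels in single libraries were scaled over the 6674 transcripts present in all 3 tables. Levels per kb used lengths of GENCODE transcripts matched to the RefSeq accession, the longest where several matched. Promoters came from RefSeq (GRCm38.p6). Alternatives were DESeq2 1.42.0, its size factors, no filter, a fit over all 9 libraries, curated transcripts only, the highest transcript per gene, a replicate block and the omission of libraries. The precision of low genes is limited by their counts.

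The members and gene lists were chosen with earlier results of these data known. Genes named were the called members, for each role the 2 of lowest p in a comparison, and where measured Mcm2, Mcm5, Pcna, Rrm2, Cdc6, Ccnd1, Cdk1, Ccnb1, Mki67, Top2a, Aurkb, Plk1, Foxm1 and Cenpa. From the other lists the 3 called genes of lowest p were named. Members named beyond this rule, such as Cdk4, Orc1, Orc5, Prim2, Pold4 and Kif2c, were chosen after their values were seen.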

Additional observations from a re-analysis of the deposited data

How the results depend on the processing

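With DESeq2 size factors or no filter, counts of genes called stayed within 1.5 times. In PA/OA against control, DESeq2 called 533 genes and 4 members, the fit over all 9 libraries 33 genes and 0 members, and leaving out 1 library gave 99 to 397 genes and 0 to 3 members. In Ang(1-7) against PA/OA, DESeq2 called 5 of the 10259 genes listed, 3 of them among the 9261 that passed the filter on low counts, and leaving out 1 library gave 0 to 18 by edgeR. In Ang(1-7) against control, DESeq2 called 259 genes and 1 member, the fit over all 9 libraries 100 genes, curated transcripts 27, the fit without Ang(1-7) 2 and 3 229 genes and 1 member, and leaving out 1 library gave 4 to 624 genes and 0 to 4 members. Several signs turned, among them those of the abundant members Rrm1, Pcna and Ccnb2 in Ang(1-7) against PA/OA once Ang(1-7) 2 was left out and of Mcm4 once Ang(1-7) 3 was left out as well. The cause was not tested. In PA/OA against control, Aurkb was -0.11 on curated transcripts, and with 1 library left out Mki67 ran from -0.49 to 0.31 and Aurkb from -0.0833 to 0.25. In Ang(1-7) against PA/OA without Ang(1-7) 2 and 3, Ccnb2 was -0.11, Mcm4 -0.00345, Rrm1 -0.00223, Mcm2 -0.0852, Pcna -0.0730, Rrm2 -0.0959, Ccnd1 -0.0204, Mki67 0.00373 and Foxm1 -0.0754. With 1 library left out there, Ccnb2 ran from -0.0926 to 0.35, Rrm1 from -0.0103 to 0.39, Mcm2 from -0.0476 to 0.0655, Pcna from -0.0615 to 0.37, Rrm2 from -0.0613 to 0.0636, Ccnd1 from -0.0910 to 0.21, Mki67 from -0.68 to 0.0747, Plk1 from -0.0711 to 0.00334 and Foxm1 from -0.0511 to 0.15. In Ang(1-7) against control, Aurkb was 0.0880 with the highest transcript per gene, and without Ang(1-7) 2 and 3 Pcna was -0.17 and Plk1 -0.00341. With 1 library left out, Pcna ran from -0.17 to 0.26, Ccnd1 from -0.28 to 0.0190, Aurkb from -0.31 to 0.0294 and Plk1 from -0.00375 to 0.0533. Correlations of same-numbered samples lay between -0.052 and 0.046, too near 0 to show whether replicate numbers paired the samples, which the labels do not say. With the replicate number as a block, 303, 0 and 10 genes and 2, 0 and 0 members were called in PA/OA against control, Ang(1-7) against PA/OA and Ang(1-7) against control. In PA/OA against control every sample correlated best with its own number, but at only 0.0110, 0.0163 and 0.0165, so no pairing can be read from this.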
